A study of Mus musculus with 22 samples.

Results

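The hypothalamus of control mice was compared between the end of 6 h of sleep deprivation, at zeitgeber time 6 (ZT6), and ZT0, the start of the light period. The libraries were chosen by their labels alone: 4 from sleep-deprived mice and 3 from ZT0 mice, which is 7 of 22 libraries in the series. The deprived mice had spent the 6 h of light without sleep, so time of day and lost sleep differ together between the groups. The remaining control group, 4 libraries from ZT6 mice that were not deprived, was sampled at the same hour and is given beside the main values.

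All 11 control mice carry the genotype written PWScrm+/p+ on the C57BL/6J background, and the other 11 libraries come from PWScrm+/p− mice that lost the paternal Snord116 genes. Age and sex are not given in the labels, nor is the way the mice were kept awake. Polyadenylated RNA of the whole hypothalamus was sequenced, so a smaller share of cells of a type and less RNA per cell cannot be told apart in any value below. Nothing in the labels says how mice were allotted to groups, and p-values measure only the spread between these libraries.

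Being kept awake engages several transcript programmes in rodent brain. Adrenal glucocorticoids, released in stress and on a daily rhythm, bind a nuclear receptor that switches on genes such as Sgk1, Fkbp5, Tsc22d3 and Per1. Neuronal firing induces immediate early genes such as Fos, Arc and Egr1, prolonged wake is known for raised chaperone transcripts such as Hspa5 in the endoplasmic reticulum (ER), and the circadian clock turns over its period (Per) and REV-ERB (Nr1d) repressors across the same hours.

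Library totals ran from 26111765 to 34056912 counts at ZT0, from 21741163 to 36417345 after deprivation and from 14609454 to 46965594 at ZT6. Sample titles carry a number after the letter S, in 3 runs: 1 to 4, 5 to 18 and 43 to 46. The labels do not say what it stands for. All 3 ZT0 libraries have numbers from 5 to 18. Among the deprived libraries, replicates 1 and 2 belong to the run from 1 to 4, only replicate 3 shares the run of the ZT0 libraries, and replicate 4 belongs to the run from 43 to 46. Across genes, libraries of 1 run but different groups had a median Spearman correlation of 0.966 over 14 pairs. Libraries of 1 group but different runs reached 0.945 over 10 pairs. For that reason 2 further values are given beside the main results: that from a fit with the number run as a covariate, and the difference between deprived replicate 3 and the 3 ZT0 libraries, all from the run 5 to 18. Neuron markers summed to 3756 to 4014 CPM (counts per 1e+06 counts of a library, after TMM scaling) at ZT0 and to 4023 to 4772 after deprivation, and hypothalamic transcription factors to 332 to 360 and 358 to 450 CPM. The tissue label thus has its markers in all 7 libraries. Of the 18 small nucleolar RNA genes in the span of the Snord116 cluster on the reference (chromosome 7, 59861731 to 59904848, GRCm38), the ZT0 libraries held 85, 73 and 1 counts and the deprived libraries 1, 2, 159 and 0. A count of 0 allows up to 3, so ZT0 replicate 3 and deprived replicates 1, 2 and 4 could not be checked against their control label at this locus. Deprived replicate 4 stood apart in other values too, and the medians of the main gene lists are also given without it.

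One gene passed the test. Sgk1, a serine/threonine kinase induced by glucocorticoids that acts on ion channels and transporters, rose with sleep deprivation. Its level was 21.1, 21.7 and 21.4 CPM in the ZT0 libraries and 116, 91.6, 116 and 69.5 CPM in deprived replicates 1 to 4. Every deprived library lay above every ZT0 library, and the 3 ZT0 values were nearly equal. The log2 fold change was 2.20 ± 0.23 (standard error), which is 4.59-fold, with an adjusted p of 0.0154 in edgeR's quasi-likelihood test (Benjamini-Hochberg over 19831 genes). At ZT6 in mice left to sleep, Sgk1 stood at 24.5, 17.8, 23.9 and 16.9 CPM, a log2 difference from ZT0 of −0.04. Deprived and slept ZT6 libraries differed by 2.24 on the log2 scale, which was also called (adjusted p = 0.00419, edgeR). With the number run as a covariate the log2 fold change against ZT0 was 2.27 (adjusted p = 0.0108, edgeR), and within the run 5 to 18 it was 2.44. The size barely depended on any single library. The call did: without deprived replicate 1, 2 or 3 the adjusted p was 0.0799, 0.0691 and 0.0752, and without ZT0 replicate 1, 2 or 3 it was 0.347, 0.274 and 0.295 (edgeR), while the log2 fold change stayed between 2.11 and 2.34.

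Sgk1 lies on chromosome 10 (GRCm38, 21882184 to 21999903, plus strand), and RefSeq gives it 6 start windows in the promoter table. Because glucocorticoid-responsive genes stand first among the results, 5 motifs were searched on both strands in 32851 windows of 27025 genes. They are the palindrome of the glucocorticoid response element (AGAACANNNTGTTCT), its core (ACANNNTGT, which lies inside the palindrome), the E-box (CACGTG), the cAMP response element (TGACGTCA) and the D-box (TTATGNAA), the last 3 being bound by clock or activity-regulated factors. The full palindrome occurs in 3 windows, 0.00913% of them, and 1 of these belongs to Sgk1. The others belong to Acnat2 and Gm35041, whose values are not given here. The core occurs in 6.85%, the E-box in 7.15%, the cAMP response element in 1.79% and the D-box in 3.38% of windows. Shown here are the 250 bases before the start site for 4 genes whose values follow, 5′ to 3′, with motif matches in capitals. They are Sgk1 at chr10:21993640-21993889 (plus strand), which holds the palindrome and an E-box, Mt1 at chr8:94178839-94179088 (plus), with the core, Per1 at chr11:69098699-69098948 (plus), with an E-box and a D-box, and Arl4d at chr11:101665291-101665540 (plus), with a cAMP response element.
Sgk1: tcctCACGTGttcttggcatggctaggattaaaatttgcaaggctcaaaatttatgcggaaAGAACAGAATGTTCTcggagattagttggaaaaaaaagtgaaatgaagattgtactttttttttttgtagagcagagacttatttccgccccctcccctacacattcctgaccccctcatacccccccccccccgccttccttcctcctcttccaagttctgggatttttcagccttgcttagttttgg
Mt1: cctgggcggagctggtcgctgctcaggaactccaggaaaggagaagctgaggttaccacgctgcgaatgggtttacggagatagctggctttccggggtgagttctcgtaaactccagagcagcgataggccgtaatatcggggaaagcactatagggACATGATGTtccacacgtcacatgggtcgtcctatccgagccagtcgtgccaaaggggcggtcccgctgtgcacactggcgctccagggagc
Per1: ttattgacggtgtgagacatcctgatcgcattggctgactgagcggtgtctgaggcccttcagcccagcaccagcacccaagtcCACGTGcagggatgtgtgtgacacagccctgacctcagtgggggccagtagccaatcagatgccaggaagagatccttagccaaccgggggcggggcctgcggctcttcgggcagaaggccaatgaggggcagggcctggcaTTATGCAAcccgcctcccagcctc
Arl4d: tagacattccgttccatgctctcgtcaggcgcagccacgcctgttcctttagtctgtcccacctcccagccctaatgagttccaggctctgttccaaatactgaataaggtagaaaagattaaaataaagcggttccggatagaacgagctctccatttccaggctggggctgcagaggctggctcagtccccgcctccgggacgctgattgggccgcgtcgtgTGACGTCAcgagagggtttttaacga
In Sgk1 the palindrome spans 21993701 to 21993715 and ends 175 bases before that start site and 951 bases before the start site at 21994666. A match shows that the letters are there. Whether the receptor binds there was not tested. Each window shown holds a match, but a further Per1 window, at chr11:69099902-69100151 (plus), holds none of the 5 motifs. Sgk1 windows with start sites at 21882184, 21986104, 21992223 and 21994666 hold none either. The windows of Tsc22d3, Nfkbia, Ddit4 and Klf9 also hold none. Of the 15 genes in the glucocorticoid list below, 14 have an entry, in 24 windows. The core was found in 3 of these windows, of 2 genes, Sgk1 and Mt1. Among all genes searched, 2135 of 27025 have the core in a window. Whether the list differs from that share was not tested.

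At an adjusted p under 0.05 edgeR thus called 1 of 19831 genes as higher after deprivation than at ZT0, 0.00504% of those tested, and 0 (0%) as lower. At an unadjusted p under 0.05 it counted 705 genes (3.56%) as higher and 429 (2.16%) as lower. Between deprived and slept ZT6 libraries 1 gene was called higher (0.00504%), again Sgk1, and 0 lower. Between slept ZT6 and ZT0, 0 and 0 were called, with 349 and 203 at an unadjusted p under 0.05. DESeq2, the tool the labels name, called 31 of the 22506 genes it could adjust as higher (0.138%) and 2 as lower (0.00889%) after deprivation. Of the 31, 8 are pseudogenes or models with number names and 9 had 0 counts in all 3 ZT0 libraries. The other 23 include 5 of the 15 glucocorticoid-responsive genes. Genes described below as called by DESeq2 did not pass in edgeR.

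**Figure D1:**
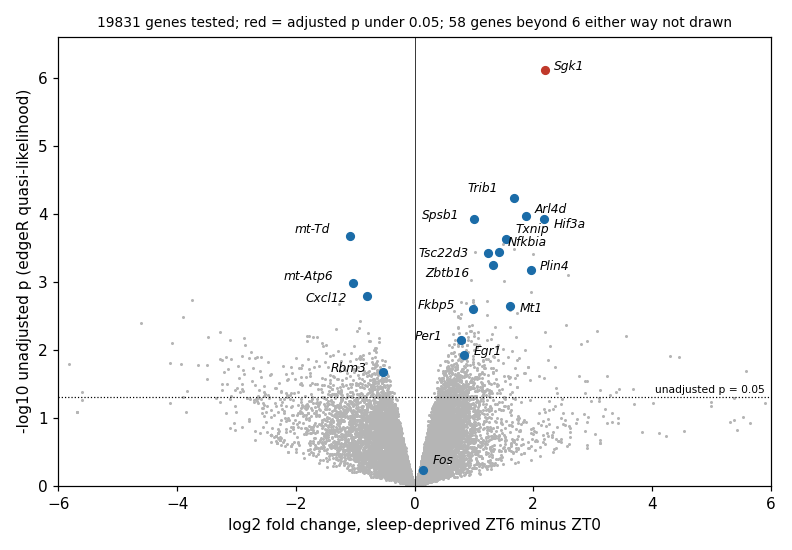
Each point is 1 of the tested genes, by the log2 fold change of sleep-deprived ZT6 over ZT0 (x axis) and −log10 of the unadjusted edgeR p (y axis); blue points are named genes with an adjusted p above 0.05. Sgk1, in red at a log2 fold change of 2.20, is the 1 gene past the adjusted threshold, while Fos lies near the bottom at 0.15.

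The glucocorticoid-responsive genes were higher as a group after deprivation. Of 15 genes, 14 had a positive log2 fold change, where 50.0% of all tested genes did, and their median was 1.16 against a median of −0.0005 over all genes. In 12 of the 15 every deprived library lay above every ZT0 library, against 9.18% of all genes with that order and 7.28% with the opposite one. One passed edgeR's adjusted threshold, Sgk1, and 12 had an unadjusted p under 0.05, where 3.56% of all genes were higher at that level. Among the 50 smallest p-values of all genes, 7 belonged to this list. The list was chosen with earlier results of these data known, so these counts are no independent test of it. Deprived ZT6 lay above slept ZT6 by a median of 0.65, and slept ZT6 above ZT0 by 0.22. The median against ZT0 was 0.78 with the number run as a covariate, 0.86 within the run 5 to 18, and 1.04 without deprived replicate 4.

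Tsc22d3 encodes GILZ, a leucine zipper protein through which glucocorticoids restrain inflammation. It was at 73.0, 63.5 and 73.9 CPM at ZT0 and at 174, 122, 192 and 177 CPM after deprivation. The groups did not overlap, and slept ZT6 libraries stood at 73.5, 122, 71.9 and 59.1 CPM, with replicate 2 at the level of the lowest deprived library. Its log2 fold change of 1.24 ± 0.25 was called by DESeq2 (adjusted p = 0.00325), while edgeR gave an adjusted p of 0.601. The number run as a covariate left 1.57, and the run 5 to 18 alone 1.45.

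Zbtb16, the zinc finger repressor PLZF, measured 5.68, 6.90 and 6.21 CPM at ZT0 against 13.5, 12.7, 17.7 and 18.5 CPM after deprivation. All deprived values lay above all ZT0 values and above the 5.20 to 10.2 CPM of slept ZT6. The log2 fold change was 1.32 ± 0.28 (DESeq2 adjusted p = 0.00763, edgeR 0.707), 1.48 with the covariate and 1.50 within the run 5 to 18.

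Nfkbia encodes IκBα, the inhibitor that holds NF-κB in the cytoplasm. ZT0 libraries had 10.1, 8.36 and 10.6 CPM and deprived ones 24.9, 18, 24.2 and 36.6 CPM, with replicate 4 the highest. The slept ZT6 range, 9.67 to 20.1 CPM, reached into the deprived values. DESeq2 called the log2 fold change of 1.42 ± 0.29 (adjusted p = 0.00263; edgeR 0.601), which was 1.36 with the covariate and 1.31 within the run.

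Fkbp5, a co-chaperone that lowers the hormone affinity of the glucocorticoid receptor, had 27.9, 22.8 and 19.0 CPM at ZT0 and 45.5, 38.6, 40.2 and 59.5 CPM after deprivation. No value overlapped, slept ZT6 libraries measured 17.9 to 34.6 CPM, and the log2 fold change was 0.98 ± 0.26 (edgeR adjusted p = 0.707), with 0.78 under the covariate and 0.79 within the run. Ddit4, an inhibitor of mTOR signalling, had 23.4, 21.9 and 25.5 CPM against 57.0, 51.7, 36.4 and 44.3 CPM, a log2 fold change of 1.00 ± 0.26 (edgeR adjusted p = 0.707), with 0.69 under the covariate and 0.62 within the run. For Ddit4, deprived replicate 3 was the lowest of the 4 and lay below the 38.1 CPM of slept ZT6 replicate 1. Neither gene was called by DESeq2 (adjusted p = 0.114 for each).

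The metallothioneins Mt1 and Mt2, small metal-binding proteins, stood above ZT0 in most ZT6 libraries, with or without sleep. Mt1 stood at 86.8, 84.5 and 75.4 CPM at ZT0, at 242, 166, 195 and 402 CPM after deprivation and at 191, 419, 123 and 177 CPM in slept ZT6 libraries. Deprived and slept values overlapped throughout. Against ZT0 the log2 fold change of Mt1 was 1.61 ± 0.41 after deprivation (DESeq2 adjusted p = 0.0267, edgeR 0.707) and 1.47 at slept ZT6. Mt2 gave 1.49 ± 0.48 and 1.05. With the covariate both genes stood at 1.72, and within the run 5 to 18 Mt1 was at 1.24 and Mt2 at 1.10.

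Of the rest, Cdkn1a (the cell cycle inhibitor p21) had a log2 fold change of 1.15, Sult1a1 (a sulfotransferase) 1.32, Klf9 (a Krüppel-like factor) 0.57 and the clock gene Per1 0.78, each without overlap between deprived and ZT0 libraries. Gjb6 (connexin 30 of astrocytes, 0.58), Pdk4 (a kinase that inhibits pyruvate dehydrogenase, 0.35) and Errfi1 (a feedback inhibitor of the EGF receptor, −0.07) overlapped. Cdkn1a was at 0.70 with the covariate and 0.49 within the run, whereas Klf9 gave 0.70 and 0.86.

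**Figure D2:**
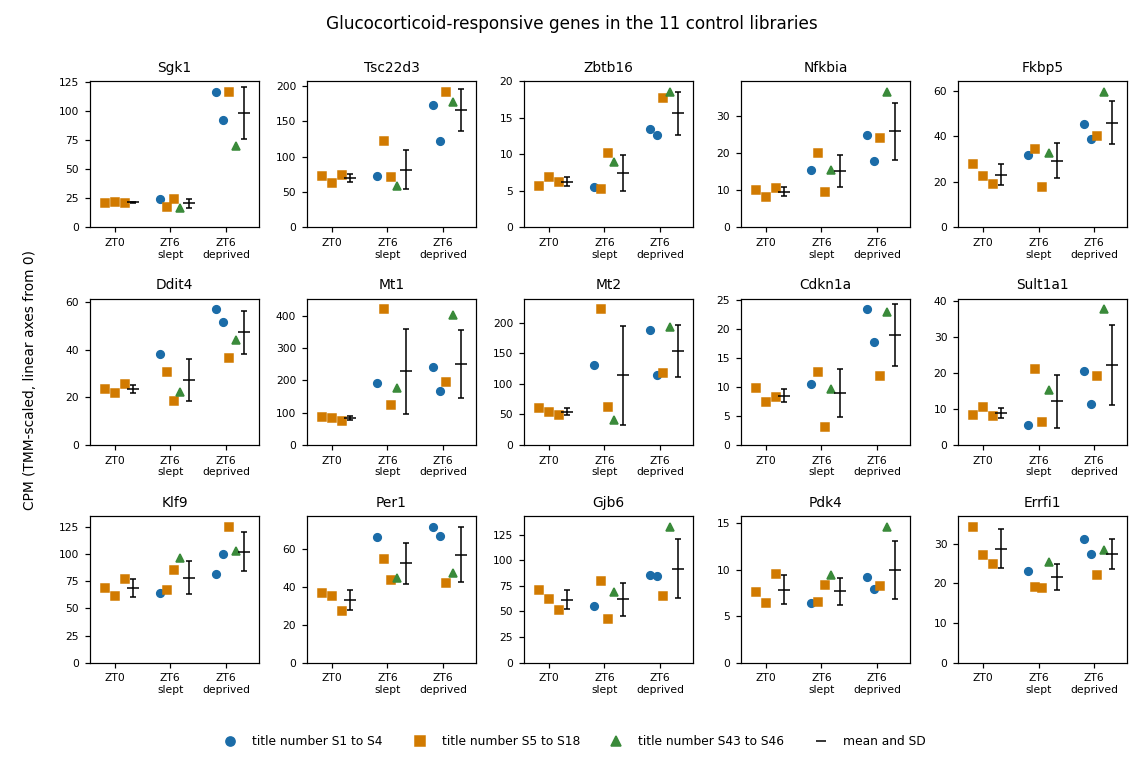
CPM of the 15 glucocorticoid-responsive genes (y axes, linear from 0) in the ZT0, slept ZT6 and sleep-deprived ZT6 control libraries; symbols show the number run in the sample title, and black bars the mean and SD. Sgk1 sits at 69.5 to 116 CPM in the deprived libraries and at 16.9 to 24.5 CPM in the 7 others, while Mt1 is also high in slept ZT6 libraries.

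The other genes with the smallest p-values against ZT0 were Trib1, Arl4d, Spsb1 and Hif3a, all higher after deprivation and all called by DESeq2 but not by edgeR (adjusted p = 0.477 each). Arl4d, a small GTPase of the ARF family that neuronal activity is known to induce, had 3.09, 1.96 and 3.21 CPM at ZT0 and 13.9, 8.89, 10.3 and 7.19 CPM after deprivation. Slept ZT6 libraries, at 2.12 to 3.91 CPM, stayed near the ZT0 level. The log2 fold change was 1.87 ± 0.33 against ZT0 and 1.67 against slept ZT6, with 1.79 under the covariate and 1.90 within the run (DESeq2 adjusted p = 4.04e-05).

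Hif3a, a hypoxia-inducible factor subunit that can oppose the other members, read 2.96, 1.99 and 1.33 CPM at ZT0 and 14.1, 8.83, 9.56 and 5.62 CPM after deprivation. Its slept ZT6 libraries, at 3.17 to 5.25 CPM, lay between the groups. The log2 fold change was 2.19 ± 0.39, or 2.32 with the covariate (DESeq2 adjusted p = 3.48e-05).

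Spsb1, an adaptor of a ubiquitin ligase, had 10, 8.89 and 10.1 CPM against 20.6, 18.4, 18.5 and 20.2 CPM, the tightest pair of groups among these genes. It differed by 1.01 ± 0.18 on the log2 scale from ZT0 and by 0.71 from slept ZT6 (DESeq2 adjusted p = 0.000232 against ZT0). Trib1, a pseudokinase that scaffolds ubiquitin ligase substrates, had 3.96, 4.52 and 4.91 CPM at ZT0 and 14.9, 12, 13.1 and 16.9 CPM after deprivation. For Trib1, slept ZT6 libraries reached 9.31, 12.3, 5.90 and 11.8 CPM, a log2 difference from ZT0 of 1.14 of the 1.67 ± 0.27 seen after deprivation (DESeq2 adjusted p = 8.54e-06).

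Another 5 genes called by DESeq2 were picked out after their values were seen. Txnip, an inhibitor of thioredoxin that glucose induces, had 14.3, 11 and 13.3 CPM at ZT0 and 37.1, 42.7, 39.2 and 30.5 CPM after deprivation. Hr, a thyroid hormone-responsive corepressor of neurons and skin, had 32.2, 29.0 and 27.2 against 94.7, 65.3, 61.2 and 111 CPM. F3, tissue factor, which astrocytes express in brain, had 38.7, 36.4 and 37.2 against 78.7, 63.2, 82.1 and 78.0 CPM. Slept ZT6 libraries held F3 at 28.0 to 48.9 and Hr at 27.7 to 54.4 CPM, below all deprived libraries in both genes, whereas Txnip reached 41.0 CPM in slept replicate 1. Plin4, a lipid droplet coat protein, read 4.61, 3.30 and 2.83 against 22.6, 9.23, 9.73 and 14 CPM, and Klf2, a Krüppel-like factor of endothelium, 2.27, 2.42 and 2.80 against 9.41, 5.55, 5.75 and 11.2 CPM. Log2 fold changes ran from 1.01 ± 0.20 for F3 to 1.95 ± 0.43 for Plin4. With the covariate they were 1.21 for Txnip, 0.97 for Hr, 0.86 for F3, 2.13 for Plin4 and 1.42 for Klf2.

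None of the 21 clock genes tested was called by edgeR or DESeq2, and 4 had an unadjusted p under 0.05 in edgeR. These 4 were higher after deprivation, as were 3.56% of all genes at that threshold. Per1, a period repressor that glucocorticoids also induce, had 37.0, 35.2 and 27.4 CPM at ZT0, 66.7, 54.8, 43.8 and 44.6 CPM at slept ZT6 and 71.8, 67.0, 41.9 and 47.4 CPM after deprivation. Both ZT6 groups lay above ZT0, and they overlapped each other, with log2 differences from ZT0 of 0.66 and 0.78 ± 0.24. Nr1d1, the REV-ERBα repressor, measured 36.3, 46.5 and 30.3 CPM at ZT0 and 77.1, 80.8, 46.8 and 64.9 CPM after deprivation, where replicate 3 lay just above the highest ZT0 library. Dbp, a transcription factor driven by E-boxes, had 20.1, 27.1 and 20.1 against 56.4, 53.9, 32.3 and 46.5 CPM. Against ZT0, Nr1d1 differed by 0.84 ± 0.26 after deprivation and 1.01 at slept ZT6, and Dbp by 1.07 ± 0.33 and 1.24. The 3 genes share a pattern over the number runs: deprived replicate 3, from the run of the ZT0 libraries, was the lowest of the 4, and within that run the log2 differences were 0.33 for Per1, 0.31 for Nr1d1 and 0.52 for Dbp. Usp2, a clock-driven deubiquitinase, was higher by 0.47 without overlap.

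Per2 (0.22 ± 0.19), Per3 (0.00 ± 0.27), Cry1 (−0.05 ± 0.17) and the activator Arntl (−0.45 ± 0.35) overlapped between deprived and ZT0 libraries. Per2 read 20.0, 24.2 and 19.6 CPM at ZT0 and 29.7, 27.5, 22.4 and 19.8 CPM after deprivation. For the 10 core clock repressors the median was 0.14, with 2 of 10 free of overlap, and for the 6 output genes 0.25, also with 2. The genes free of overlap were higher after deprivation, an order that 9.18% of all genes had. The 5 core clock activators had a median of −0.32, which was −0.03 with the covariate and −0.08 within the run, and 0 of them were free of overlap. Deprived and slept ZT6 differed by a median of −0.08 for the repressors, 0.09 for the output genes and 0.35 for the activators. Without deprived replicate 4 the medians against ZT0 were 0.13, 0.25 and −0.33.

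The cold-inducible RNA-binding proteins, whose transcripts are high when brain temperature is low and during sleep, stood apart from the clock genes. Rbm3 measured 70.5, 77.4 and 96.3 CPM at ZT0, 78.8, 79.8, 106 and 115 CPM at slept ZT6 and 48.8, 47.5, 66.5 and 61.9 CPM after deprivation. All deprived libraries lay below all others. The log2 difference was −0.54 ± 0.20 from ZT0 (unadjusted p = 0.021, adjusted 0.707, edgeR) and −0.75 from slept ZT6. It was −0.42 with the covariate and −0.29 within the run 5 to 18. Cirbp had 62.9, 76.8 and 75.0 CPM at ZT0 and 70.9, 71.9, 82.0 and 101 CPM after deprivation, which overlap, and 113, 125, 89.0 and 169 CPM at slept ZT6. Its log2 difference was 0.18 ± 0.22 between deprived and ZT0, 0.79 between slept ZT6 and ZT0, and −0.61 between deprived and slept ZT6. Neither gene passed an adjusted threshold in these 3 comparisons.

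**Figure D3:**
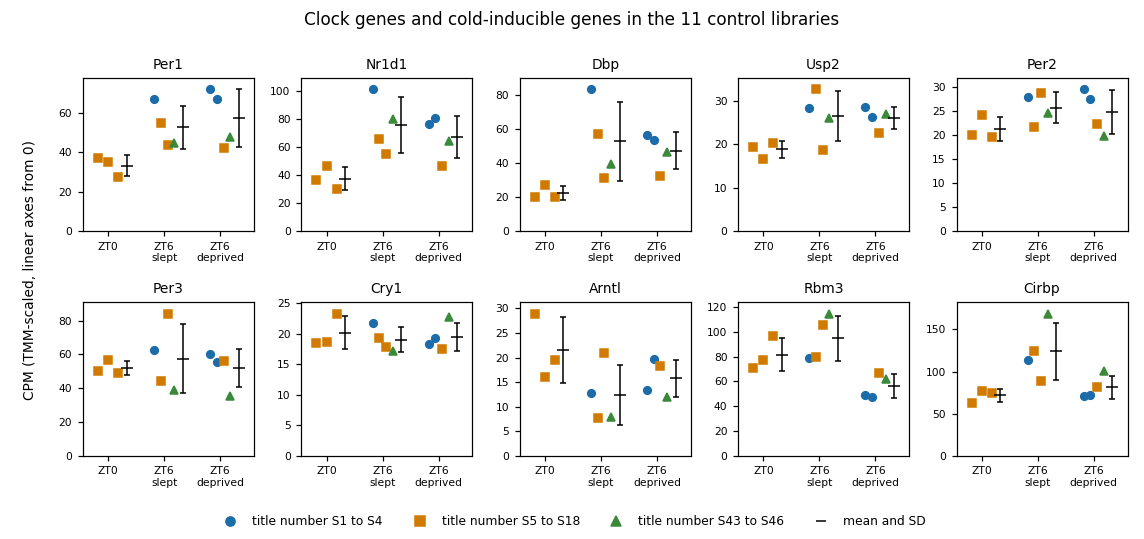
CPM of 8 clock genes and the cold-inducible genes Rbm3 and Cirbp (y axes, linear from 0) by group, with symbols for the number run and bars for the mean and SD. Per1, Nr1d1 and Dbp are higher in both ZT6 groups than at ZT0, Rbm3 is lowest in the 4 deprived libraries at 47.5 to 66.5 CPM, and Cirbp is highest in slept ZT6 libraries.

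Most immediate early genes had a positive log2 fold change after deprivation, but the median was smaller or negative where the number run was considered. Of 16 tested, 13 had a positive log2 fold change with a median of 0.63, and 6 did not overlap: Egr1, Ier2, Jun, Egr2, Nr4a1 and Maff. The 6 were higher after deprivation and are 37.5% of the list, against 9.18% of all genes with that order. With the covariate the median was 0.11, with 10 of 16 positive, and without deprived replicate 4 it was 0.53. Within the run 5 to 18, with deprived replicate 3 alone, the median was −0.23, with 7 of 15 positive. The part of the number run in these values was not tested. Slept ZT6 libraries also lay above ZT0 in this list, by a median of 0.52 with 12 of 16 positive. Deprived lay above slept ZT6 by a median of 0.16. Fos, the most used marker of recent firing, had 14.5, 12.4 and 12.4 CPM at ZT0 and 16.1, 17.5, 11 and 13.5 CPM after deprivation, a log2 fold change of 0.15 ± 0.26 that was −0.22 with the covariate. Arc, a synaptic capsid-like protein, gave 0.27 ± 0.28 and −0.38, and Homer1, a postsynaptic scaffold, −0.42 ± 0.30 and 0.02. Egr1 measured 21.7, 22.2 and 17.6 CPM at ZT0, 32.5, 30.7, 29.7 and 53.6 CPM after deprivation, and 28.7 to 54.6 CPM at slept ZT6. Its deprived and slept values overlapped, with log2 differences from ZT0 of 0.84 ± 0.28 and 0.93, and 0.41 with the covariate.

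Among 15 slower activity-regulated effectors, 5 did not overlap: Arl4d, Vgf, Nptx2, Gadd45g and Sik1. They were higher after deprivation and are 33.3% of the list, against 9.18% of all genes with that order. The median of the list was 0.13, so these 5 do not stand for it. It was 0.14 with the covariate, −0.07 within the run and 0.13 without deprived replicate 4. Vgf, a secreted neuropeptide precursor, had 144, 159 and 128 CPM at ZT0 and 282, 266, 275 and 514 CPM after deprivation, against 98.5 to 258 CPM at slept ZT6. All 4 deprived libraries lay above the 7 others. Its log2 fold change was 1.22 ± 0.33 from ZT0 (edgeR adjusted p = 0.707, DESeq2 0.0912) and 0.86 from slept ZT6, with 0.94 under the covariate and within the run alike. Nptx2, a pentraxin that gathers AMPA receptors, had 28.6, 27.6 and 18.5 against 40.4, 39.3, 32.8 and 46.5 CPM (0.67 ± 0.24, 0.29 with the covariate). Gadd45g, a growth arrest gene, was 8.61, 7.13 and 6.65 CPM at ZT0 and 23.0, 17.3, 14.9 and 82.4 CPM after deprivation, so that replicate 4 alone set much of its 2.20 ± 0.65.

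Most chaperone transcripts had positive log2 fold changes after deprivation, with deprived replicate 4 far above the rest, and 0 members of the 2 chaperone lists were called by edgeR or DESeq2. At an unadjusted p under 0.05 edgeR counted 6 of the cytosolic and 5 of the ER genes as higher, and 3.56% of all genes. In the cytosolic heat shock list 16 of 18 genes had a positive log2 fold change, 4 without overlap (Hspa8, Hspa1b, Hsp90ab1 and Stip1), and the median was 0.51, and 0.25 without replicate 4. In the list of ER chaperones and unfolded protein response genes 16 of 19 were positive, 6 without overlap (P4hb, Pdia6, Calr, Dnajb11, Hyou1 and Ddit3), and the median was 0.55, and 0.32 without it. Over all genes, 9.18% were free of overlap in that direction. With the covariate the medians were 0.35 and 0.41, and within the run 5 to 18 they were 0.47 and 0.37. Deprived and slept ZT6 differed by medians of 0.48 and 0.40. The cytosolic list summed to 5945 to 6940 CPM at ZT0, to 8279, 7387, 9406 and 16040 CPM in deprived replicates 1 to 4, and to 10710 CPM in slept ZT6 replicate 4. The ER list summed to 3059 to 3683 CPM, to 3879, 3519, 4699 and 7633 CPM, and to 5245 CPM. Slept replicate 4, which shares the run 43 to 46 with deprived replicate 4, thus lay above deprived replicates 1 to 3 in both sums.

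Hspa5, the ER chaperone BiP and a common marker of prolonged wake, had 455, 346 and 486 CPM at ZT0 and 547, 451, 665 and 1198 CPM after deprivation. Replicate 2 lay below ZT0 replicates 1 and 3, so the groups overlap, and the log2 fold change was 0.74 ± 0.33 (edgeR adjusted p = 0.707), with 0.61 under the covariate and 0.63 within the run. Pdia6, a protein disulfide isomerase, kept the groups apart at 136, 129 and 139 against 197, 163, 212 and 295 CPM (0.68 ± 0.23, 0.61 with the covariate and 0.65 within the run). Hspa1b, the inducible HSP70, had 5.62, 4.33 and 6.01 against 8.50, 8.58, 7.13 and 12.7 CPM, with slept ZT6 libraries at 1.85 to 5.56 CPM. It differed by 0.79 ± 0.36 from ZT0 and by 1.29 from slept ZT6, and with the covariate by 0.21 from ZT0. Hspa8, the constitutive HSP70, had 2252, 1889 and 2071 against 3072, 2591, 2813 and 4848 CPM (0.69 ± 0.28, and 0.44 both with the covariate and within the run).

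**Figure D4:**
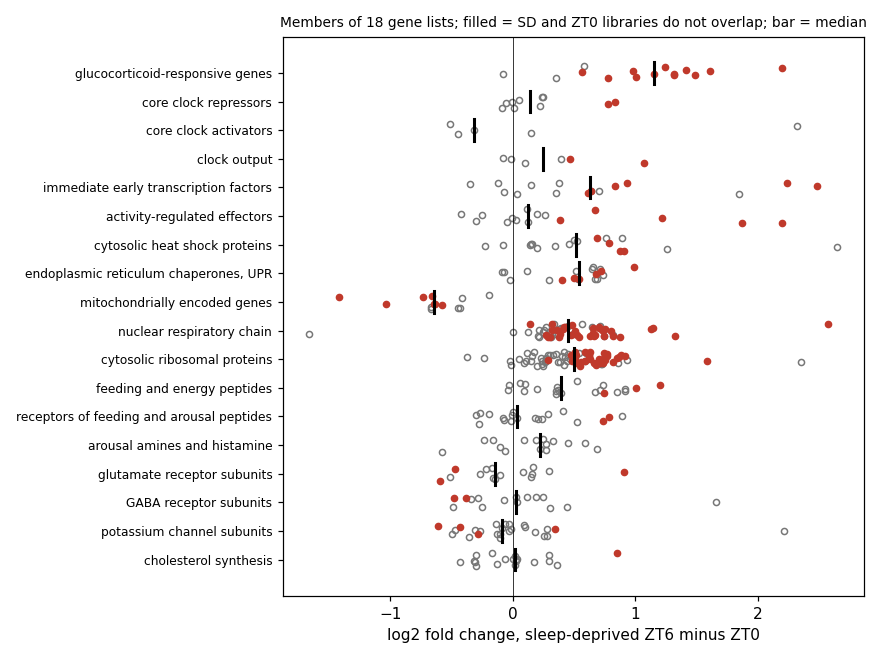
Log2 fold change of sleep-deprived ZT6 over ZT0 (x axis) for each tested member of 18 gene lists; filled points mark genes whose deprived and ZT0 libraries do not overlap, and bars the list medians. The glucocorticoid-responsive list lies farthest to the right, with a median of 1.16, and the mitochondrially encoded list farthest to the left, at −0.64.

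On the side of lower values, the smallest p-values against ZT0 belonged to mt-Td, mt-Tc, mt-Atp6, Gm22969 and Cxcl12. None was called by edgeR, and DESeq2 called mt-Td and mt-Atp6 (adjusted p = 0.00263 and 0.0136). All 13 protein genes of the mitochondrial genome had a negative log2 fold change, with a median of −0.64, and 7 did not overlap, an order that 7.28% of all genes had. With the covariate 2 of the 13 were positive, and within the run 5 to 18, 1 was. Their sum was 76410 to 83900 CPM at ZT0, 49860 to 65400 CPM at slept ZT6 and 47530 to 55990 CPM after deprivation, so both ZT6 groups lay below ZT0. As a share of all counts these are 7.63 to 8.52%, 4.35 to 6.35% and 4.44 to 5.90%. The median was −0.93 with the covariate, −0.98 within the run 5 to 18, −0.65 without deprived replicate 4, and −0.50 between slept ZT6 and ZT0.

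Among these genes mt-Atp6, a subunit of the ATP synthase, had 7918, 7409 and 9573 CPM at ZT0, 3408, 4519, 3699 and 4616 CPM after deprivation and 3431 to 6226 CPM at slept ZT6. Its deprived libraries were all below ZT0 by a wide margin, −1.03 ± 0.24 on the log2 scale, with −0.90 under the covariate and −1.17 within the run. mt-Co1, a subunit of cytochrome oxidase, had 19880, 21450 and 19530 against 18040, 14240, 12400 and 7708 CPM (−0.63 ± 0.30). mt-Td and mt-Tc, transfer RNA genes of the mitochondrion that adjoin longer transcripts, gave −1.09 ± 0.21 and −1.03 ± 0.24 from levels of 15.6 to 27.1 CPM at ZT0. Reads of adjoining mitochondrial genes cannot be kept apart in these values, and counting strand is not given in the sources used here.

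Nuclear genes of the respiratory chain had the opposite sign. Of 57 genes, 56 had a positive log2 fold change, with a median of 0.45, and 34 did not overlap. One of them, Ndufa9, was called by DESeq2, and 0 by edgeR. Cytosolic ribosomal proteins gave 71 of 75, a median of 0.51 and 32 without overlap, though 3 reached an unadjusted p under 0.05 and 0 were called by either tool. Over all genes 9.18% lay higher without overlap, and 3.56% were higher at an unadjusted p under 0.05 in edgeR. With the covariate the medians were 0.71 and 0.66, and within the run 5 to 18 they were 0.45, with 54 of 57 positive, and 0.29, with 60 of 75 positive. Slept ZT6 libraries differed from ZT0 by medians of 0.49 and 0.57 in the same lists, and deprived from slept by 0.03 and −0.08. Both sums varied widely at ZT6: the ribosomal list reached 34330 CPM in slept replicate 2 and 24990 CPM in deprived replicate 4 against 11720 to 13840 CPM at ZT0. Without deprived replicate 4 the medians against ZT0 were 0.36 and 0.30.

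**Figure D5:**
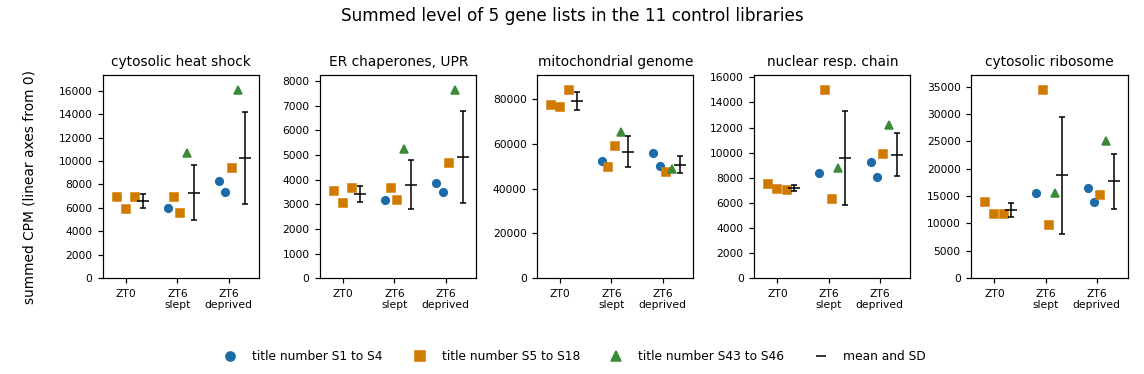
Summed CPM of 5 gene lists (y axes, linear from 0) in each control library, with symbols for the number run and bars for the mean and SD. The mitochondrial genome sum is lower in both ZT6 groups than at ZT0, and the heat shock and ER chaperone sums are highest in deprived replicate 4.

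Gm22969, a small nuclear RNA model of 107 bases on chromosome 7 (46450413 to 46450519), had 13.8, 11.6 and 2.14 CPM at ZT0 and 0.104, 0, 0 and 0.152 CPM after deprivation. Slept ZT6 libraries were also near 0 except replicate 3, at 4.72 CPM. Such a short model shares sequence with other small nuclear RNA genes, and its counts are uncertain. Cxcl12, a chemokine made by vessels and stromal cells, had 24.4, 32.8 and 23.6 CPM at ZT0 and 16.7, 18, 12.1 and 14.7 CPM after deprivation. The log2 difference of Cxcl12 was −0.81 ± 0.20 from ZT0 and −0.45 from slept ZT6, and −1.03 with the covariate. Another vessel gene, the transporter Slco1a4 (picked out after its value was seen), had 32.8, 45.9 and 41.8 against 24.8, 20.9, 21.9 and 16.6 CPM (−0.93 ± 0.27). The 10 markers of endothelium and pericytes summed to 264 to 308 CPM at ZT0 and 197 to 342 CPM after deprivation, with a list median of −0.03, 3 of 10 positive. The median was −0.35 with the covariate (1 of 10 positive), −0.50 within the run 5 to 18 (0 of 10) and −0.34 without deprived replicate 4, the library with the highest sum. Their part in the values of Cxcl12 and Slco1a4 was not tested.

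Neuropeptides of feeding and arousal showed wide spread between libraries. Hcrt, the hypocretin (orexin) precursor of wake-promoting lateral hypothalamic neurons, had 25.8, 133 and 28.5 CPM at ZT0 and 46.3, 32.7, 140 and 47.6 CPM after deprivation. ZT0 replicate 2 and deprived replicate 3 stood far above the other libraries, and the log2 fold change of 0.10 ± 0.63 ran from −0.56 to 1.31 as single libraries were left out. Pmch, the melanin-concentrating hormone precursor of neighbouring neurons, had 398, 687 and 707 against 512, 451, 1144 and 947 CPM (0.35 ± 0.39, with 0.88 under the covariate and 0.94 within the run). Replicate 3 of the deprived libraries was the highest in both genes. Of 21 peptide genes tested 19 had a positive log2 fold change with a median of 0.39, and 3 did not overlap: Sst, Penk and Qrfp. The 3 are 14.3% of the list, against 9.18% of all genes. With the covariate the median was 0.52, within the run 5 to 18 it was 0.12 with 14 of 21 positive, and without deprived replicate 4 it was 0.33. Slept ZT6 libraries also lay above ZT0 in this list, by a median of 0.36 with 17 of 21 positive. Deprived lay above slept ZT6 by a median of 0.15. Somatostatin (Sst), an inhibitory peptide, had 101, 90.6 and 76.6 against 167, 128, 154 and 271 CPM, a log2 fold change of 1.01 ± 0.32 against 0.84 at slept ZT6, with 1.02 under the covariate and 0.78 within the run. The enkephalin precursor Penk, at 68.7, 81.7 and 73.3 against 113, 91.1, 139 and 343 CPM, was again highest in deprived replicate 4. The striatum markers in that library summed to 499 CPM, against 165 to 186 CPM at ZT0 and 211 to 239 CPM in the other deprived libraries. Their part in the Penk value was not tested. Crh, the corticotropin-releasing hormone that drives the stress axis, stood at 1.75, 3.18 and 2.49 CPM at ZT0 and 2.27, 1.98, 9.94 and 4.56 CPM after deprivation, with overlap (0.92 ± 0.54).

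Receptor and channel transcripts sat near the middle of all genes. Medians were −0.14 for 15 glutamate receptor subunits, 0.03 for 15 GABA receptor subunits, −0.09 for 25 potassium channel subunits, 0.04 for 19 receptors of feeding and arousal peptides and 0.02 for 19 genes of cholesterol synthesis. Without deprived replicate 4 they were −0.04, 0.15, −0.01, 0.25 and −0.08. The 8 adenosine signalling genes had a median of 0.14, with 5 of 8 positive. The median was 0.13 with the covariate, 0.04 within the run 5 to 18 (4 of 8 positive) and 0.11 without deprived replicate 4. In this list the receptor Adora1 (0.52) and adenosine deaminase Ada (0.87) were higher without overlap, an order that 9.18% of all genes had. These 2 do not stand for the list. Snhg14, the host transcript of the Snord116 cluster, had 542, 784 and 420 CPM at ZT0 and 437, 521, 407 and 192 CPM after deprivation, with overlap (−0.58 ± 0.60).

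Pituitary and blood markers stood high in single libraries. Pituitary hormone genes summed to at most 2.44 CPM at ZT0, to 0.378 to 30.8 CPM after deprivation and to 643 CPM in slept ZT6 replicate 1. Blood markers summed to 271 to 661 CPM at ZT0 and 254 to 1456 CPM after deprivation, where replicate 4 was the highest. Meninges and fibroblast markers summed to 86.4 to 407 and 61.9 to 343 CPM, and myelin markers to 5951 to 6765 and 5592 to 8327 CPM. Of 9 nuclear-retained or abundant non-coding RNAs, 8 had a negative log2 fold change (median −0.39), with sums of 12700 to 14770 CPM at ZT0 and 7255 to 10900 CPM after deprivation. Of 9 neuron markers 7 had a positive log2 fold change, with a median of 0.32, and 0.19 with the covariate. In 4 of the 9 (44.4%) the deprived libraries lay higher without overlap, against 9.18% of all genes. Microglia markers gave 9 of 10 positive, a median of 0.36, 0.26 with the covariate, and 3 of 10 (30.0%) without overlap. Slept ZT6 differed from ZT0 by medians of 0.02 for neurons and 0.46 for microglia. The part of these markers and RNAs in the values above was not tested.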

How the data were processed

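Per the labels, polyA libraries were sequenced on a NovaSeq. Per the submitters' processing notes and the labels, reads were checked with FastQC, trimmed with Trimmomatic 0.38 and quantified with kallisto 0.44.0 on an Ensembl mouse index. The deposited table holds expected counts per gene, whole numbers that the authors did not normalise. Of its 41461 lines, 5 repeats were dropped, and positions come from GENCODE M21 (GRCm38). Here 19831 genes were tested with edgeR 4.0.16 in R 4.3.3 (TMM, filterByExpr with min.count 10, quasi-likelihood F test, two-sided) in 1 fit of the 11 control libraries and 3 groups. CPM are TMM-scaled, and a count of 0 allows up to 3 counts, 0.0824 to 0.138 CPM in the 7 libraries, for counting error only. Standard errors were derived from each log2 fold change and its F statistic (size divided by root F). DESeq2 1.42.0, limma 3.58.1, other sample sets and a covariate for title numbers were alternatives, and the script was tested on simulated data. Replicates differed by at least 36.41 in chi-square per degree of freedom. Promoters are RefSeq windows (GRCm38.p6). The rule names called genes, the 5 smallest p-values each way, called list members and 19 fixed genes. The comparison, the lists and the rule were chosen with earlier results of these data known.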

Additional observations from a re-analysis of the deposited data

Results flagged for a closer look

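In groups of 4 libraries, 1 value can lie so far from its neighbours that the gap exceeds Dixon's critical share of the range, 0.829. This was asked of 110 named genes and list sums in each of the deprived and slept ZT6 groups, and chance flags about 1 in 20 groups. Of 14 deprived values that did, 12 came from replicate 4. Among the 110 slept ZT6 items 7 did, which is near the rate that chance gives.

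Deprived replicate 4 was the highest library for Egr1 (53.6 CPM, others 29.7 to 32.5), Vgf (514 CPM, others 266 to 282), Gadd45g (82.4 CPM, others 14.9 to 23.0), Ier2 (4.86 CPM, others 3.09 to 3.34), Hsp90ab1 (4581 CPM, others 1873 to 2232) and Calr (1445 CPM, others 427 to 513). Its list sums were the highest for activity-regulated effectors (963 CPM, others 611 to 648), hypothalamic transcription factors (450 CPM, others 358 to 367), astrocytes (3819 CPM, others 2965 to 3033), blood (1456 CPM, others 254 to 424), striatum (499 CPM, others 211 to 239) and Hox genes (3.70 CPM, others 0.964 to 1.17). Hcrt was high in deprived replicate 3 (140 CPM, others 32.7 to 47.6), and mt-Atp8, another ATP synthase subunit, in deprived replicate 2 (728 CPM, others 181 to 264).

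Among slept ZT6 libraries, replicate 3 stood apart for Gm22969 (4.72 CPM, others at most 0.212), Homer1 (41.2 CPM, others 17 to 20.7), Slco1a4 (47.4 CPM, others 22.7 to 25) and, on the low side, Fkbp5 (17.9 CPM, others 31.8 to 34.6). Replicate 1 was low for Hcrt (23.2 CPM, others 54.5 to 59.5) and high for the pituitary sum (643 CPM, others 1.42 to 14). Replicate 4 had the highest sum of Rbm3 and Cirbp (283 CPM, others 192 to 205).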

How the results depend on the processing

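No paired analysis was possible because replicate numbers were given in accession order and the libraries come from separate mice. The single call against ZT0 was kept with RLE factors, no low-count filter, the number run as a covariate and the 2-fold limit. Higher and lower calls against ZT0 numbered 31 and 2 with DESeq2, 2 higher with only the 7 libraries, and 0 higher with 17 libraries of both genotypes, with all 22, or within numbers 5 to 18. Leaving out single libraries gave 0 to 2 higher calls against ZT0, 1 to 2 against slept ZT6, and 0 to 1 lower calls at slept ZT6 against ZT0. DESeq2 called 11 and 1 at slept ZT6 against ZT0, and 8 and 4 after deprivation against slept ZT6. Of alternatives chosen after seeing the data, limma-voom kept the single call, and limma-voom with library weights called 19 and 3 against ZT0. DESeq2 with the number run as a covariate, also chosen then, called 69 and 49 against ZT0. It called 68 and 28 for slept ZT6 against ZT0, and 40 and 41 against slept ZT6. Of its 118 calls against ZT0, 18 are among the 33 of DESeq2 alone. The cause of these shifts was not tested. Signs turned for 8 of 69 named genes. With the number run as a covariate in edgeR, within numbers 5 to 18, and with it in DESeq2, the log2 fold change was −0.225, −0.256 and −0.220 for Fos and −0.379, −0.414 and −0.371 for Arc. The covariate in edgeR and DESeq2 gave 0.023 and 0.033 for Homer1, and 0.300 and 0.315 for Snhg14. Per3 was 0.003 with RLE factors, 0.004 with DESeq2, 0.041 unfiltered, 0.142 with the covariate, 0.020 with 17 and 0.038 with 22 libraries, 0.113 within numbers 5 to 18, 0.096 with weights and 0.154 with DESeq2 and the covariate. Without single libraries Per3 ran from −0.071 to 0.150, Cry1 from −0.130 to 0.076, Hcrt from −0.559 to 1.31 and Errfi1 from −0.153 to 0.073. The other 61 kept their sign in every alternative run.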

Other observations

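A few genes were low or at 0 at ZT0 and higher in most ZT6 libraries, whether the mice slept or not (chosen after their values were seen). Ndufa9, a subunit of respiratory complex I, had 3.35, 4.95 and 6.76 CPM at ZT0, 9.19, 11.5, 36.2 and 31.2 CPM at slept ZT6 and 20.1, 14.6, 49.0 and 36.5 CPM after deprivation. Its log2 fold change after deprivation was 2.58 ± 0.58, against a median of 0.45 for the nuclear respiratory chain, and DESeq2 called it (adjusted p = 0.000863). Cep78, a centrosomal protein, had 1.49, 2.57 and 1.16 CPM at ZT0 and 5.15 to 9.67 CPM after deprivation, with slept ZT6 at 3.76 to 9.52 CPM. The pseudogene Eif4a-ps4 was at 0 in all 3 ZT0 libraries and at 14.2, 16.9, 13.6 and 31.5 CPM after deprivation, while slept ZT6 libraries had 12, 0, 19.4 and 58.4 CPM. As a pseudogene it shares sequence with its parent genes, and its counts are uncertain.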
